A study of Mus musculus with 2 samples.

Results

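Thick ascending limb (TAL) cells line the last part of the loop of Henle, just before the distal convoluted tubule of the nephron. Here they were the cells to which the deposited annotation gives the name TAL. They numbered 112 of 5170 cells in the library of a kidney after ischaemia-reperfusion injury (IRI) and 324 of 6589 cells in the control library, 436 of 11759 cells in all, and all lay in deposited cluster 10. IRI stops and then restores blood flow to the kidney. The IRI mouse also had its opposite kidney removed. The control is called normal, with no nephrectomy named, so effects of ischaemia and of the nephrectomy cannot be told apart. Both mice were wild-type C57BL/6 of 9 weeks, and the labels give neither the time after injury nor the time of day of harvest. Kidneys were minced and digested with enzymes before droplet single-cell RNA sequencing. Each group is 1 library, so nothing here is a test between animals: the values describe 2 libraries. Ranges in brackets after a share or a ratio of shares are exact 95% intervals, which cover counting error and no spread between animals.

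TAL cells take up sodium, potassium and chloride from the tubule fluid through the cotransporter NKCC2 (Slc12a1) and return potassium to the lumen through ROMK (Kcnj1). The resulting lumen-positive voltage drives calcium and magnesium through claudin pores between the cells. TAL cells also secrete uromodulin (Umod), the most abundant protein of normal urine, and make the precursor of epidermal growth factor (Egf). They use much oxygen in a poorly oxygenated part of the kidney, and injured tubules are known to lower Egf and to make osteopontin (Spp1) and lipocalin 2 (Lcn2).

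TAL cells had 340522 raw unique molecular identifiers (UMIs) in the IRI library, a median of 1770 per cell, and 777167 in the control library, a median of 1506.5 per cell. Expression is given below as the mean corrected count per cell, a value that the authors adjusted for the depth of each cell, and ratios are log2 of IRI over control after adding 0.05 to both means. Of the deposited barcodes, 55 occurred in both libraries; 2 of them were TAL cells of the IRI library, 5 were TAL cells of the control library and 0 were TAL in both. Doublets were not called.

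The TAL name was checked against 5 markers. Slc12a1 had a mean of 2.16 in IRI and 3.13 in control TAL cells, and a value above 0 in 34.8% (interval 26.1 to 44.4%) of IRI and 48.5% (42.9 to 54.0%) of control TAL cells. Umod averaged 8.96 in IRI and 12.7 in control TAL cells. Ppp1r1a, an inhibitor subunit of protein phosphatase 1, averaged 4.05 in IRI and 6.38 in control TAL cells, and Kcnj1 averaged 0.464 in IRI and 0.435 in control TAL cells. Egf, the fifth marker, averaged 1.91 in IRI and 6.52 in control TAL cells. Of the TAL cells, 11 in IRI and 12 in control had none of the 5 markers, while 19 in IRI and 64 in control had all 5. In lymphocytes, which should lack these genes, Umod was above 0 in 6.02% of IRI and 10.5% of control cells, at median depths of 2399 and 2252 UMIs. Not all 5 markers set TAL apart from cells named distal convoluted and connecting tubule, where Kcnj1 averaged 0.683 in IRI and 0.513 in control. In cluster 24 of those cells, 84.4% of IRI and 78.1% of control cells had at least 3 of the 5. Slc12a1 averaged 0 in IRI and 0.0469 in control in that cluster.

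Some cells under the TAL name carried markers of the next segment. Slc12a3, the thiazide-sensitive NaCl cotransporter of the distal convoluted tubule, or parvalbumin (Pvalb) was above 0 in 30.4% (22.0 to 39.8%) of IRI and 10.8% (7.64 to 14.7%) of control TAL cells. Nearly all of these, 33 in IRI and 31 in control, had no Slc12a1, and 1 in IRI and 4 in control had both. The summed mean of the 8 markers of the distal convoluted and connecting tubule was 5.27 in IRI and 3.86 in control TAL cells, with Trpm6, Slc8a1 and Trpv5 at 0 in IRI and Slc8a1 and Trpv5 at 0 in control. The 33 IRI cells without Slc12a1 averaged 1.76 for Slc12a3 and 2 for Pvalb, and the 31 control cells averaged 2.52 and 2.58. Results below are therefore also given for TAL cells without Slc12a3 and Pvalb, 78 in IRI and 289 in control, or for TAL cells with Slc12a1, 39 in IRI and 157 in control. The cells with Slc12a1 had a median of 4987 raw UMIs in IRI and 2978 in control. The 5 markers had higher corrected counts in the deepest TAL cells, so values in cells with Slc12a1 are not compared at equal depth.

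Other foreign markers were scarce, except for the proximal tubule. The summed mean of its 12 markers was 9.09 in IRI and 17.7 in control TAL cells, including Kap, an androgen-regulated proximal tubule protein, with 1.79 in IRI and 8.91 in control TAL cells. Kap averaged 1.31 in IRI and 5.65 in control lymphocytes. Macrophage markers summed to 0.527 in IRI and 0.145 in control TAL cells, and neutrophil markers to 0.223 in IRI, with all 5 at 0 in control. T and NK cell markers were all at 0 in IRI and summed to 0.0123 in control, and B cell markers were all at 0 in both. The part of these transcripts in the results was not tested.

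TAL cells made up 2.17% (1.79 to 2.6%) of IRI cells and 4.92% (4.41 to 5.47%) of control cells, a ratio of 0.441 (0.352 to 0.548). Among epithelial cells outside the proximal tubule the shares were 16.7% in IRI and 31.0% in control, a ratio of 0.539. Without the cells that had Slc12a3 or Pvalb the shares of all cells were 1.51% in IRI and 4.39% in control, a ratio of 0.344. A share depends on how many cells of every other type survived digestion and entered the droplets, so fewer TAL cells and more cells of other types cannot be told apart.

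Cells with Slc12a1 were not all named TAL, and the 2 libraries differed in where they lay. In the IRI library 113 cells had Slc12a1, of which 39 were TAL (34.5%, 25.8 to 44.0%), 50 lay in cluster 9, named tDL (thin descending limb) by the authors, and 24 lay elsewhere. In the control library 250 cells had Slc12a1, of which 157 were TAL (62.8%, 56.5 to 68.8%), 1 lay in cluster 9 and 92 lay elsewhere. Counted whatever their name, cells with Slc12a1 were 2.19% of IRI and 3.79% of control cells, a ratio of 0.576 (0.457 to 0.722). These counts include the 24 IRI and 92 control cells elsewhere, which averaged 1.21 in both libraries for Slc12a1. Their Umod averaged 0.833 in IRI and 0.326 in control, and their Kap 8.67 and 31.1. Whether their Slc12a1 was their own or free RNA was not tested. Cluster 9 itself held 420 IRI cells and 36 control cells.

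The 50 IRI cells of cluster 9 with Slc12a1 had a Umod mean near that of TAL cells and lower means of most other TAL genes. Umod averaged 17.1 in them, against 21.5 in the 39 IRI and 23.4 in the 157 control TAL cells with Slc12a1. Egf averaged 0.08 in the cluster 9 cells, against 4.51 in IRI and 12.2 in control TAL cells. Ppp1r1a averaged 0.62 there, against 5.79 in IRI and 6.95 in control TAL cells, and Ppp1r1b, a related phosphatase inhibitor, 0.02 there, against 0.641 in IRI and 0.783 in control TAL cells. The claudin gene Cldn10 averaged 0.28 in the cluster 9 cells, against 1.28 in IRI and 1.27 in control TAL cells, while Cldn19 averaged 0.76 there, 0.769 in IRI TAL and 0.452 in control TAL cells. Spp1 averaged 102 in the cluster 9 cells, against 13.5 in IRI and 2.01 in control TAL cells. Lcn2 averaged 7.58 there, against 0.513 and 0.0127 in IRI and control TAL cells, and clusterin (Clu) 8.10 there, against 0.256 and 0.0127. The deposited clusters were made from the same cells' expression, so these differences describe the cells that the clustering separated. Among the other 370 IRI cells of cluster 9, Umod averaged 0.973 and Spp1 28.9. S100a6, a calcium-binding protein gene, went the other way, at 7.74 in the 50 cells and 28.4 in the 370. Median depths were 3328 raw UMIs in the 50 cells and 1271 in the 370, so equal depths are not compared.

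**Figure D1:**
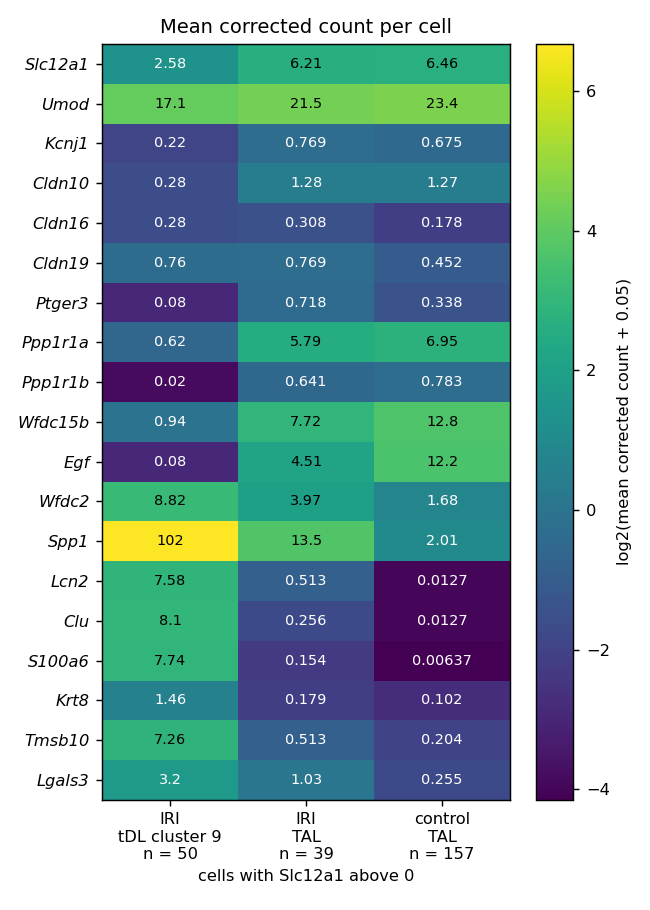
Mean corrected count per cell of 19 genes (rows) in cells with Slc12a1 above 0: the 50 IRI cells of cluster 9, the 39 IRI TAL cells and the 157 control TAL cells (columns), coloured by log2(mean + 0.05). Umod lies between 17.1 and 23.4 in all 3 columns, while Egf is 0.08, 4.51 and 12.2 and Spp1 is 102, 13.5 and 2.01. Median depths were 3328, 4987 and 2978 raw UMIs, so the columns are not at equal depth.

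For 10 genes the TAL mean stood highest relative to every other cell type, taking the smaller of the ratios in the 2 libraries; they describe the annotation and are not a finding of their own. Ppp1r1b headed them, with a TAL mean of 0.312 in IRI and 0.716 in control and a mean 19.7 times that of the next type. Slc12a1 followed at 7.37 times and Nccrp1 at 7.32 times the next type. The defensin gene Defb42, the prostaglandin E2 receptor gene Ptger3 and Umod were among the others, at 6.88, 3.28 and 3.24 times the next type. Between the libraries, Ppp1r1b had a log2 ratio of -1.08 and Nccrp1 of -1.25, with TAL means of 0.170 in IRI and 0.472 in control. Without the cells that had Slc12a3 or Pvalb, these ratios were -0.83 and -0.96. Defb42 and Ptger3 had TAL means of 0.125 and 0.312 in IRI, against 0.0833 and 0.194 in control, log2 ratios of 0.39 and 0.57.

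Over the transcriptome, 2807 genes had enough counts in TAL cells to compare, at least 30 summed corrected counts over both libraries. Of these, 41 (1.46%) were at least 2-fold higher in IRI and 116 (4.13%) at least 2-fold lower, and the median log2 ratio was -0.06. These percentages are the background for the counts in the gene lists that follow. A member past 2-fold is called higher or lower as a description, since no replicate exists to test it.

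The salt transport machinery of the TAL stayed within 2-fold: of 19 genes, 15 could be compared, with 0 at least 2-fold higher, 0 at least 2-fold lower and a median log2 ratio of -0.07. Atp1b1, a beta subunit of the sodium pump, averaged 3.65 in IRI and 3.59 in control. Fxyd2, a regulator of the pump, averaged 41.3 in IRI and 31.8 in control. Barttin (Bsnd), an accessory subunit of chloride channels, averaged 0.0982 in IRI and 0.139 in control. The kinase Wnk1 averaged 0.768 in IRI and 0.602 in control, and Wnk4 0.446 in IRI and 0.543 in control. The ratio of the shares of TAL cells with Slc12a1 was 0.719 (0.493 to 1.03), and without the cells that had Slc12a3 or Pvalb it was 0.920 (0.627 to 1.32), with shares of 48.7% in IRI and 52.9% in control. The list was compared over all depths pooled, and Slc12a1 was lower in IRI in each of 4 ranges of depth. It averaged 0.32 in IRI and 0.907 in control below 800 UMIs, and 0.85 and 1.35 from 800 to 1500. From 1500 to 3000 UMIs it averaged 0.657 in IRI and 2.71 in control, and 6.06 and 6.83 from 3000 upward. Below 800 and from 1500 to 3000 UMIs the difference was past 2-fold.

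Of 12 tight junction genes 5 could be compared, none was past 2-fold and the median log2 ratio was 0.33. Cldn10, whose protein forms sodium-permeable pores, averaged 0.562 in IRI and 0.883 in control TAL cells, a log2 ratio of -0.61. Cldn16 and Cldn19, which together make the pore for calcium and magnesium, averaged 0.143 and 0.366 in IRI, against 0.148 and 0.281 in control. Among TAL cells with at least 2000 raw UMIs, 53 in IRI and 135 in control, Cldn10 was above 0 in 39.6% (26.4 to 54.0%) of IRI and 65.9% (57.3 to 73.9%) of control cells. In the same cells Cldn16 was above 0 in 11.3% (4.27 to 23%) of IRI and 17.0% (11.1 to 24.5%) of control cells. Both claudins were above 0 in 2 IRI and 9 control cells, Cldn16 alone in 4 IRI and 14 control cells, and Cldn10 alone in 19 IRI and 80 control cells. In mouse TAL the 2 claudins are known to lie largely in different cells. In cells with Slc12a1, Cldn10 averaged 1.28 in IRI and 1.27 in control, at unequal median depths of 4987 and 2978 raw UMIs.

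Ptger3, through which prostaglandin E2 restrains salt uptake, was above 0 in 34.0% of IRI and 33.3% of control cells at that depth. Among these deeper cells, 13 IRI and 43 control cells had both, and 5 IRI and 2 control cells had Ptger3 without Cldn10. The calcium-sensing receptor gene Casr was listed at 0 in all 112 IRI TAL cells (3 counts would be 2.68%, a limit on cells with a count and not on cells that express the gene) and was above 0 in 13 of 324 control TAL cells (4.01%, 2.15 to 6.76%). Of the 15 receptor and signalling genes, 4 could be compared and none was past 2-fold in either direction. For macula densa cells, the salt-sensing cells at the end of the TAL, none of 7 genes had enough counts to compare. Ptgs2 and Avpr1a were listed at 0 in all TAL cells, which at this depth does not show that such cells were absent. Of 20 nephron transcription factors 10 could be compared, and none was past 2-fold. Pou3f3, a TAL and distal tubule factor, had the lowest ratio, with means of 0.0982 in IRI and 0.232 in control, a log2 ratio of -0.93.

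Genes for secreted proteins lay past 2-fold in both directions. Of 20 genes, 14 could be compared: Spp1, Lcn2, Clu and Wfdc2 were at least 2-fold higher in IRI, Egf was at least 2-fold lower, and the median log2 ratio was 0.08. Egf was 1.91 ± 3.77 in IRI and 6.52 ± 10.8 in control TAL cells (mean ± SD over cells), a log2 ratio of -1.74. Spp1, a secreted phosphoprotein that binds integrins and calcium crystals, was 7.18 ± 9.78 in IRI and 1.30 ± 2.07 in control TAL cells, a log2 ratio of 2.42. Wfdc2, a secreted protein with protease-inhibitor domains, averaged 2.33 in IRI and 1.12 in control TAL cells, a log2 ratio of 1.02. This ratio lay under 1 in 5 of the alternatives, at 0.80 in the lowest. From 800 to 1500 UMIs Wfdc2 averaged 1.15 in IRI and 1.135 in control, and it was higher in IRI in the other ranges of depth. Wfdc15b, of the same family, averaged 5.41 in IRI and 9.71 in control TAL cells, a log2 ratio of -0.84.

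Umod was lower in IRI in each of 4 ranges of depth: it averaged 2.36 in IRI and 3.51 in control below 800 UMIs, 4 and 5.76 from 800 to 1500, 5.14 and 12.5 from 1500 to 3000, and 21.4 and 26.5 from 3000 upward. In TAL cells with Slc12a1, Umod was 21.5 ± 17.9 in IRI and 23.4 ± 21.3 in control (mean ± SD over cells), with medians of 16 and 17. These cells had median depths of 4987 raw UMIs in IRI and 2978 in control, and Umod rose with depth, so equal depths are not compared. Egf in the same cells was 4.51 ± 5.31 in IRI and 12.2 ± 13.1 in control, with medians of 2 and 7, and 22 in IRI and 70 in control as the highest cell. Egf was above 0 in 42.9% (33.6 to 52.5%) of all IRI and 56.8% (51.2 to 62.2%) of all control TAL cells. The ratio of these shares was 0.755 (0.537 to 1.04), an interval that includes 1, and 0.852 (0.579 to 1.22) without the cells that had Slc12a3 or Pvalb. Cells with Egf averaged 4.46 in IRI and 11.5 in control. Across depth, Egf averaged 0.32 in IRI and 1.97 in control below 800 UMIs, 0.95 and 2.92 from 800 to 1500, 1.11 and 6.86 from 1500 to 3000, and 4.62 and 13.2 from 3000 upward. IRI cells were lower in each of these 4 ranges.

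Spp1 in TAL cells with Slc12a1 was 13.5 ± 14.1 in IRI and 2.01 ± 2.44 in control (mean ± SD over cells), with medians of 9 and 1. It was above 0 in 92.0% (85.3 to 96.3%) of IRI and 49.4% (43.8 to 55.0%) of control TAL cells. Spp1 was also above 0 in 60.8% of IRI and 3.49% of control lymphocytes, which averaged 1.15 in IRI and 0.0349 in control. With each library's mean over all immune cells subtracted, macrophages and neutrophils included, the TAL log2 ratio of Spp1 was 1.78. Resident macrophages averaged 2.21 in IRI and 0.452 in control for Spp1. Whether this was their own or free RNA was not tested, so the immune mean may not stand for free RNA. Lcn2, an iron-carrying protein used as a marker of tubule injury, was above 0 in 16 of 112 IRI TAL cells (14.3%, 8.39 to 22.2%) and in 2 of 324 control TAL cells (0.617%, 0.0748 to 2.21%), a ratio of shares of 23.1 (5.44 to 207.5). It was above 0 in 5.42% of IRI lymphocytes and listed at 0 in control lymphocytes. Clu, a secreted chaperone, averaged 0.446 in IRI and 0.0648 in control TAL cells, and 0.282 in IRI and 0.0138 in control without the cells that had Slc12a3 or Pvalb.

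**Figure D2:**
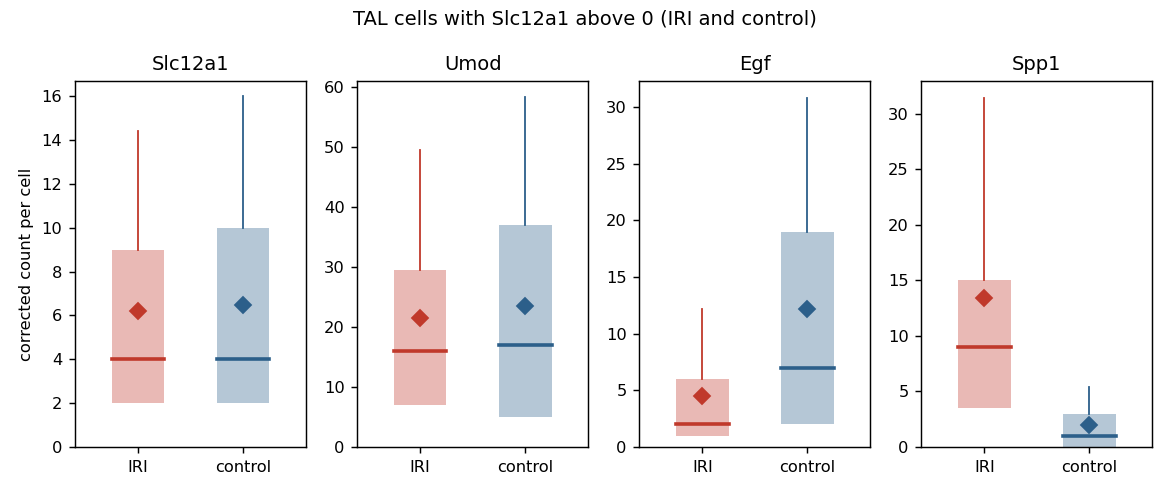
Corrected counts per cell of Slc12a1, Umod, Egf and Spp1 in TAL cells with Slc12a1 above 0, for IRI (left, 39 cells) and control (right, 157 cells). Boxes run from the first to the third quartile, the thick line is the median, the diamond the mean, and the whisker reaches the 90th percentile. The cells were chosen by Slc12a1, so its panel compares no levels. Median depths were 4987 raw UMIs in IRI and 2978 in control, so the panels are not at equal depth. Medians are 16 in IRI and 17 in control for Umod, 2 and 7 for Egf, and 9 and 1 for Spp1.

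Markers of tubule injury were higher in IRI TAL cells for 7 of the 15 genes of 34 that could be compared, against 1.46% of all genes, and lower for 0; the median log2 ratio was 0.58. The 7 were Spp1, Lcn2 and Clu, the calcium-binding protein S100a6, the actin-sequestering peptide thymosin beta 10 (Tmsb10), galectin 3 (Lgals3) and the transcription factor Sox4. Lcn2 and S100a6 had 30 and 39 summed corrected counts, against a limit of 30, and passed it mainly through the IRI cells. Genes low in both libraries did not enter the 15, so the 7 of 15 depends partly on this filter. The list was also chosen with earlier results of these data known. S100a6 averaged 0.312 in IRI and 0.0123 in control TAL cells, a log2 ratio of 2.54. It was above 0 in 24 IRI and 3 control cells. Its mean in IRI was near that in other IRI tubule cells, 0.268 and 0.285 in proximal tubule segments (PT-S1 and PT-S2) and 0.254 in the distal convoluted and connecting tubule (DCT/CNT), and it was 24.8 in the tDL cells and 1.90 in lymphocytes. Immune cells express S100a6 themselves, so their mean cannot stand for free RNA of this gene. Lgals3 averaged 0.696 in IRI and 0.228 in control TAL cells, against 0.241 and 0.0698 in lymphocytes. Sox4 averaged 0.152 in IRI and 0.0463 in control TAL cells, and was above 0 in 13 and 12 of them, against 1 lymphocyte in each library.

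Other injury genes showed no such difference or were not seen. Havcr1, the kidney injury molecule of the proximal tubule, was listed at 0 in all TAL cells of both libraries, as were Krt20, Vcam1 and Cd44. Krt7 averaged 0.438 in IRI and 0.485 in control TAL cells, and Krt8 0.0714 in IRI and 0.0864 in control. In the 50 IRI cluster 9 cells with Slc12a1, Krt8 averaged 1.46. Sox9 was above 0 in 2 IRI TAL cells and in 0 control TAL cells. Of 25 cell cycle genes 4 could be compared and none was past 2-fold; Mki67 was above 0 in 1 IRI TAL cell and in 0 control TAL cells.

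Actin genes leaned higher in IRI. Of 16 genes compared, 3 were at least 2-fold higher, 0 were lower and the median log2 ratio was 0.32. Thymosin beta 4 (Tmsb4x) averaged 1.44 in IRI and 0.417 in control TAL cells, Tmsb10 0.741 in IRI and 0.204 in control, and cofilin (Cfl1), which severs actin filaments, 1.01 in IRI and 0.475 in control. The actins Actb and Actg1 averaged 3.04 and 2.79 in IRI, against 1.56 and 1.51 in control, log2 ratios of 0.94 and 0.86. Tmsb4x and Tmsb10 are abundant in leukocytes: lymphocytes averaged 29.9 and 16.1 in IRI, and 29.2 and 14.8 in control. Among 8 antigen presentation and interferon genes compared, Ly6e alone was past 2-fold. It averaged 0.277 in IRI and 0.0309 in control TAL cells, a log2 ratio of 2.02. In TAL cells with Slc12a1, Ly6e averaged only 0.0769 in IRI and 0.0510 in control, at unequal depths. Lymphocytes averaged 3.55 in IRI and 3.72 in control for Ly6e. B2m averaged 0.170 in IRI and 0.0957 in control TAL cells, and none of the cytokines and attractants was past 2-fold, 1 of 22 having enough counts.

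Clock output genes were among the lower genes in IRI TAL cells. Of the 8 glucocorticoid and clock genes compared, Dbp, Tef and Txnip were at least 2-fold lower, against 4.13% of all genes, 0 were higher, and the median log2 ratio was -0.58. Dbp and Tef code for related transcription factors whose transcripts cycle over the day under the clock proteins CLOCK and BMAL1. Dbp averaged 0.0893 in IRI and 0.512 in control TAL cells, a log2 ratio of -2.01, and was above 0 in 8.04% (3.74 to 14.7%) of IRI and 32.7% (27.6 to 38.1%) of control TAL cells. Tef averaged 0.0536 in IRI and 0.225 in control TAL cells, a log2 ratio of -1.41, and was above 0 in 4.46% (1.46 to 10.1%) of IRI and 17.9% (13.9 to 22.5%) of control TAL cells. Txnip, a redox protein that restrains glucose uptake, averaged 0.250 in IRI and 0.593 in control, and -0.99 was its log2 ratio without the cells that had Slc12a3 or Pvalb. Txnip also averaged 0.253 in IRI and 0.698 in control lymphocytes. Per3, a clock gene, was above 0 in 3 IRI and 24 control TAL cells. Nr1d2, another clock gene, averaged 0.116 in IRI and 0.114 in control TAL cells, and Fkbp5, which glucocorticoids induce, 0.0893 in IRI and 0.0679 in control. Harvest time and injury cannot be told apart here.

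The upstream sequences of Dbp and Tef are shown because these genes were lower together and because CLOCK and BMAL1 bind the E-box CACGTG, which reads the same on both strands. The 250 bases before each start are from RefSeq on build GRCm38.p6, whereas the submitters' notes name mm9; all lie on the plus strand and run 5′ to 3′, with the E-box in capitals. The Tef windows are chr15:81802423-81802672 and chr15:81811164-81811413, before the 2 starts that the table gives, and the Dbp window is chr7:45704997-45705246.
Tef, upstream start: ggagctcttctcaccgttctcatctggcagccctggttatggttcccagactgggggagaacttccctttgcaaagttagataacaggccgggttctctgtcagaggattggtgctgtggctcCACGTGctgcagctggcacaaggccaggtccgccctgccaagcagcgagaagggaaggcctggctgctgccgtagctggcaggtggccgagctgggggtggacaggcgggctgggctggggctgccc
Tef, downstream start: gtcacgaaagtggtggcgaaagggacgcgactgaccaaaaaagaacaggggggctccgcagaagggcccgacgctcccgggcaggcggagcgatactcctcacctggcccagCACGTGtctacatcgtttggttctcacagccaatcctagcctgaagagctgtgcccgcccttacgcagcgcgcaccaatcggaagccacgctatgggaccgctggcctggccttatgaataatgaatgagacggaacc
Dbp: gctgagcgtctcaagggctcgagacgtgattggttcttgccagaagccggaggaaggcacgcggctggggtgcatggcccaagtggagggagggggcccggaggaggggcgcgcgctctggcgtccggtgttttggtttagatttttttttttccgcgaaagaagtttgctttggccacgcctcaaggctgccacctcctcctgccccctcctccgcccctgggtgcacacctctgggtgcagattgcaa
Both Tef windows hold the E-box once, and these letters are not in the Dbp window. Of all 32851 such windows, 1978 (6.02%) hold it. A match is a description of the letters and no evidence of binding.

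Dbp and Tef were lower in IRI in the other tubule types too, whose comparisons share the same 2 libraries. Several of these types hold different clusters in each library: of the tDL cells, 420 of 440 in IRI lay in cluster 9 and 391 of 427 in control in cluster 11, and in PT-S2 and PT-S3 most IRI cells lay in clusters 0 and 3 and most control cells in others. The log2 ratio of Dbp was -1.68 in DCT/CNT, -2.14 in tDL, -2.14 in PT-S1, -1.88 in PT-S2 and -1.77 in PT-S3, and Dbp was listed at 0 in IRI intercalated cells (CD-IC), against 0.632 in control. Tef had log2 ratios of -1.02 in DCT/CNT, -2.01 in CD-IC, -1.42 in tDL, -0.70 in PT-S1, -0.70 in PT-S2 and -2.03 in PT-S3. Pink1, a kinase that marks damaged mitochondria, was likewise lower in each, from -1.06 in DCT/CNT to -1.83 in CD-IC, and -1.60 in TAL. Within the 13 other clusters that had at least 20 cells in both libraries, Dbp was lower in IRI in 13, Pink1 in 13 and Tef in 11. Egf, at -1.74 in TAL, had -0.52 in DCT/CNT as a whole, but its cluster 24, with 32 IRI and 64 control cells, averaged 2.53 in IRI and 6.72 in control, a log2 ratio of -1.39. Lower Egf was thus not confined to TAL cells. In the other 5 types its mean was at most 0.04 in either library, below the 0.05 added, so their ratios are not informative. Spp1 was higher in IRI in all 7 segments, from 1.54 in CD-IC to 6.66 in PT-S3.

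**Figure D3:**
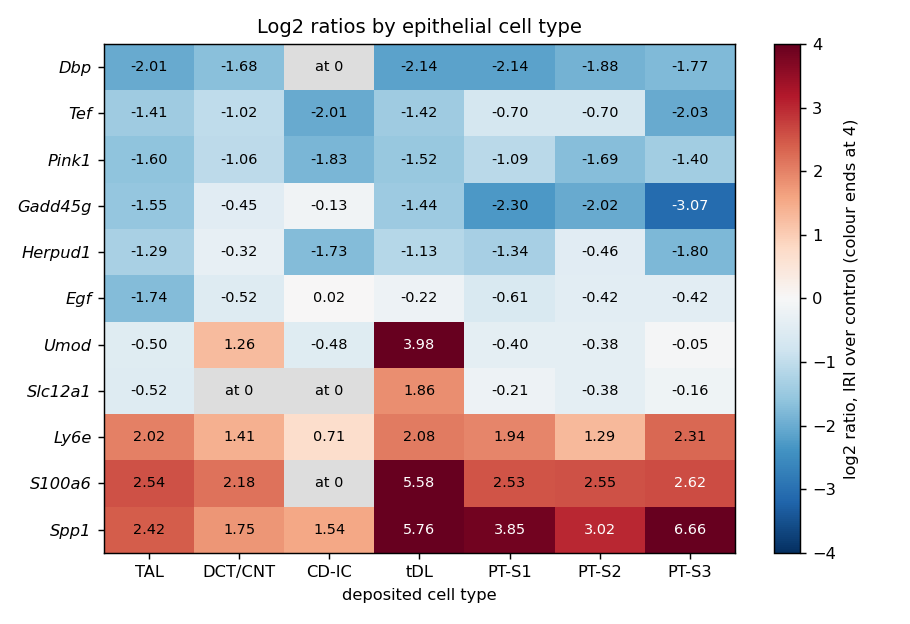
Log2 ratios (IRI over control, mean corrected counts) for 11 genes (rows) in TAL and 6 other deposited epithelial types (columns), blue for lower and red for higher in IRI; grey cells marked "at 0" have a mean of 0 in a library and no ratio. Types are pooled over their clusters. Dbp and Pink1 are below -1 in every type with a ratio; Egf is -1.74 in TAL and -0.52 in DCT/CNT, whose cluster 24 has -1.39.

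Energy metabolism genes stayed within 2-fold. Of 38 nuclear genes of the respiratory chain all 38 could be compared, 0 were past 2-fold and the median log2 ratio was 0.20. The 13 mitochondrially encoded genes had a median of -0.04, and mt-Co1 averaged 57.6 in IRI and 62.9 in control. Fatty acid oxidation had 0 of 16 genes past 2-fold and a median of -0.22, with Acadm, a medium-chain dehydrogenase, at 0.304 in IRI and 0.577 in control. Glycolysis had 0 of 13 past 2-fold and a median of 0.22, with the enzyme Aldoa at 3.04 in IRI and 1.90 in control and hexokinase 1 (Hk1) at 0.125 in IRI and 0.272 in control. Cytoplasmic ribosomal protein genes had 0 of 26 past 2-fold and a median of -0.01.

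Of the stress gene lists, few members were past 2-fold. Among 9 immediate early genes compared, Btg2, a growth-restraining gene, was higher, with 0.179 in IRI and 0.0340 in control TAL cells, a log2 ratio of 1.45. Dusp1, a phosphatase that switches off stress kinases, was above 0 in 1 of 112 IRI and 24 of 324 control TAL cells, a ratio of shares of 0.120 (0.00293 to 0.739). Fos and Jun averaged 0.107 and 0.143 in IRI, against 0.0586 and 0.120 in control. Among 13 chaperones, calreticulin (Calr) was at least 2-fold higher, with 0.357 in IRI and 0.111 in control; its log2 ratio of 1.34 was 0.84 without the cells that had Slc12a3 or Pvalb. Among 18 metallothionein and antioxidant genes, Gstm1, a glutathione transferase, was at least 2-fold lower, with 0.161 in IRI and 0.407 in control, a log2 ratio of -1.12. Mt1 averaged 13.3 in IRI and 15.1 in control, and Gpx4 3.71 in IRI and 3.38 in control. Of 4 matrix and integrin genes compared none was past 2-fold.

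**Figure D4:**
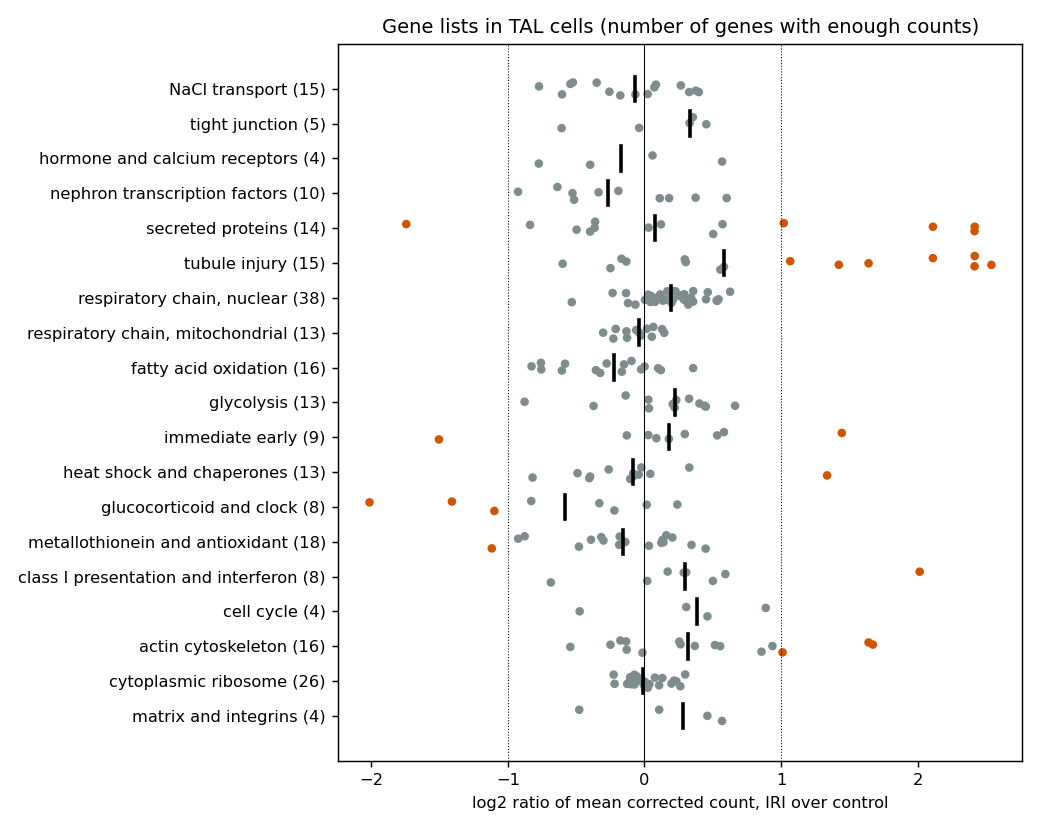
Log2 ratio of IRI over control in TAL cells for each gene of 19 lists with at least 4 genes to compare (rows; the number compared in brackets). Each point is a gene, orange past the 2-fold lines at -1 and 1, and the black bar is the list's median; the injury and clock lists have medians of 0.58 and -0.58.

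The 15 genes with the highest ratios were led by Tubb2b, a beta tubulin, with a mean of 0.250 in IRI and 0.0340 in control TAL cells, a log2 ratio of 1.84. It was above 0 in 22.3% (15 to 31.2%) of IRI and 3.09% (1.49 to 5.60%) of control TAL cells, and in cells with Slc12a1 and no Slc12a3 or Pvalb it averaged 0.395 in IRI and 0.0327 in control. Nol3, an inhibitor of apoptosis, averaged 0.357 in IRI and 0.0895 in control TAL cells, a log2 ratio of 1.54. Tsc22d1, a TGF-beta-stimulated transcription regulator, averaged 1.26 in IRI and 0.448 in control TAL cells, a log2 ratio of 1.40. Pycard, the inflammasome adaptor ASC, averaged 0.393 in IRI and 0.123 in control TAL cells, against 0.404 and 0.256 in lymphocytes. The autophagy regulator Trp53inp2 and the phosphatase Dusp3 had log2 ratios of 1.27 and 1.21. Scd2, a fatty acid desaturase, and Uqcc2, an assembly factor of respiratory complex III, had log2 ratios of 1.20 and 1.12.

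Of these 15 genes, 11 had a higher mean in DCT/CNT cells than in TAL cells of the IRI library, as did 59.0% of the 1861 genes that could have been named. Pgam2, a phosphoglycerate mutase, averaged 0.893 in IRI and 0.275 in control TAL cells, against 2.78 and 2.21 in DCT/CNT cells. Without the cells that had Slc12a3 or Pvalb, 11 of the 15 stayed past 2-fold, and Pgam2, Calr and Cyb5rl did not. Pvalb was then 0 in both libraries by the choice of cells, so its loss is no outcome. Pgam2 then had a log2 ratio of 0.50. These cells are most of those in which the 15 were picked, so this is no separate check. In cells with Slc12a1 alone, Pgam2 was listed at 0 in IRI and averaged 0.0654 in control.

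The 15 genes with the lowest ratios were led by Dbp and Egf. Gadd45g, a stress-response gene, averaged 0.438 in IRI and 1.38 in control TAL cells, a log2 ratio of -1.55, and was above 0 in 20.5% (13.5 to 29.2%) of IRI and 54.6% (49.0 to 60.1%) of control TAL cells. Pink1 averaged 0.0714 in IRI and 0.318 in control TAL cells. Herpud1, which takes part in the breakdown of proteins of the endoplasmic reticulum, averaged 0.0804 in IRI and 0.269 in control TAL cells, a log2 ratio of -1.29. Ahnak, a large scaffold protein, was above 0 in 2 IRI and 45 control TAL cells, a ratio of shares of 0.129 (0.0151 to 0.492). Klf15, a transcription factor that follows glucocorticoids and the clock, was above 0 in 3 IRI and 39 control TAL cells, a ratio of 0.222 (0.0440 to 0.70). Lars2, a mitochondrial leucyl-tRNA synthetase, and the tetraspanin Cd82 had log2 ratios of -1.52 and -1.38.

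In the control library, 12 of these 15 genes had a higher mean in at least 1 of the 3 proximal tubule types than in TAL cells, as did 57.8% of the 1861 genes that could have been named. Dao, a D-amino acid oxidase of the proximal tubule, was listed at 0 in IRI TAL cells and averaged 0.111 in control TAL cells. Acy3, an aminoacylase, averaged 0.402 in IRI and 1.06 in control TAL cells, and 0.151 in IRI and 0.558 in control lymphocytes. Ttc36 averaged 0.812 in IRI and 2.04 in control TAL cells, and 0.295 in IRI and 1.16 in control lymphocytes. The enzymes Dcxr and Lap3 were also among the lowest, Dcxr with 0.0982 in IRI and 0.330 in control TAL cells and Lap3 above 0 in 2 IRI and 37 control TAL cells, a ratio of shares of 0.156 (0.0183 to 0.606). All 15 stayed past 2-fold without the cells that had Slc12a3 or Pvalb, but the cells left are most of those in which the 15 were picked.

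**Figure D5:**
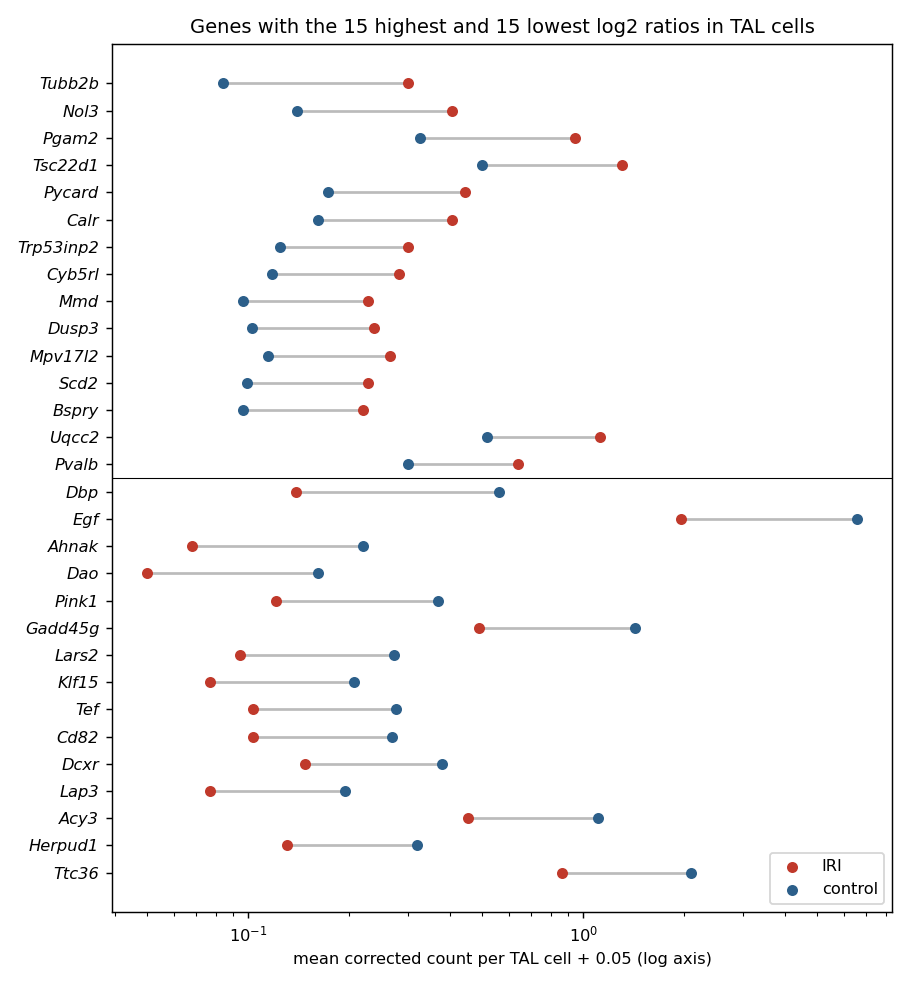
Mean corrected count per TAL cell plus 0.05 (log axis) in IRI (red) and control (blue) for the 15 genes with the highest (above the line) and the 15 with the lowest (below the line) log2 ratios. Grey bars join the libraries; Egf lies at 1.91 in IRI and 6.52 in control, and Dao at 0 in IRI.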

How the data were processed

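The submitters' processing notes name Cell Ranger 3.0.0, Seurat 3.2 and the build mm9. The deposited table used is a score, not a raw count: the authors' depth-corrected whole numbers for 15169 genes and 11759 cells, with totals of 1468 to 3212 per cell where raw UMIs run from 271 to 24680, as in the SCT assay that the deposited annotation names. Taking the natural log of these numbers plus 1 gave the second deposited table to within 5.3e-15. Residuals of 3000 genes, deposited as a score, served only to read the annotation. Raw counts were not analysed here. The deposited annotation has no separators; 111 of 436 TAL cells had more than 1 possible split into UMIs and genes. In shallow cells the correction can give an abundant gene a value above 0 without a UMI.

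The members and lists were chosen with earlier results of these data known. Means per library were compared as log2 ratios with 0.05 added, in Python 3.11.15, numpy 2.4.6 and scipy 1.17.1, for genes with at least 30 summed values; 2-fold was the limit for a call. Named genes are the 15 highest and 15 lowest with a mean of at least 0.1, without technical genes and genes whose TAL mean is under 1 part in 5 of the highest other type with at least 20 cells. Members of the 22 gene lists (423 of 430 genes in the table) and 14 marker sets are named besides. Shares have exact Clopper-Pearson 95% intervals, ratios of shares exact conditional ones, and a share of 0 a limit of 3 counts. The steps were tested on simulated data. Alternatives were other pseudocounts, scalings, filters, depths and subsets of cells, a subtraction of each library's mean over immune cells, and 1.5-fold. Some members of the salt transport list are counted but not reported here by name.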

Additional observations from a re-analysis of the deposited data

Results flagged for a closer look

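The following genes were past 2-fold in TAL cells and past 2-fold the other way in another segment; each such difference was not tested, since each group is 1 library. The tDL values set different clusters side by side, since 420 of 440 IRI cells lay in cluster 9 and 391 of 427 control cells in cluster 11. Ahnak had a log2 ratio of 1.17 in tDL cells (means of 0.173 in IRI and 0.0492 in control). Within cluster 9 its ratio was -0.86, and within cluster 11, which had 20 IRI cells, it was 1.09. In TAL cells Ahnak was above 0 in 2 IRI and 45 control cells. Lars2 had 1.32 in tDL cells (0.116 in IRI and 0.0164 in control), against -1.52 in TAL cells. Its ratio was 1.65 within cluster 9, where it was listed at 0 in control, and 2.37 within cluster 11. Txnip, at -1.10 in TAL cells, had 1.35 in tDL cells (0.316 in IRI and 0.0937 in control), but -0.47 within cluster 9 and 0.46 within cluster 11. In PT-S1 cells Txnip had 1.27 (0.138 in IRI and 0.0283 in control). Gstm1, at -1.12 in TAL cells, had 1.11 in PT-S1 cells (0.585 in IRI and 0.245 in control). Elsewhere its ratio was -0.54 in DCT/CNT, -0.96 in CD-IC, -2.38 in tDL, 0.01 in PT-S2 and 0.31 in PT-S3. Gstm1 also averaged 0.05155 in IRI and 0.1525 in control T cells, and 0.0725 and 0.222 in B cells. The part of free RNA in its TAL values was not tested. Btg2, at 1.45 in TAL cells, had -1.82 in CD-IC cells (0.236 in IRI and 0.965 in control).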

How the results depend on the processing

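No paired analysis was possible because each group is 1 library. Alternatives that select cells by Slc12a1, Slc12a3 or Pvalb or drop shared barcodes, and ratios within clusters of other types, were chosen after seeing the data. The 41 genes at least 2-fold higher and 116 lower became 76 and 261 with a pseudocount of 0.01 and 3 and 3 with 0.5; list genes lower became 14 with 0.01, and list genes past 2-fold 2 higher and 1 lower with 0.5. With no filter 74 were higher; with at least 100 summed values 13 were higher and 32 lower, with 6 list genes higher. With at least 2000 raw UMIs 10 list genes were lower. Subtracting the immune mean gave 143 higher and 206 lower, and 10 list genes lower. A 1.5-fold limit gave 169 higher and 402 lower, and 20 and 24 in the lists. Without Slc12a3 or Pvalb cells 8 list genes were higher, fewer than those named above. In these cells 2403 genes had enough counts, against 2807 in all TAL cells. The ratio of TAL shares was 0.563 with at least 2000 raw UMIs, 0.344 without Slc12a3 or Pvalb cells and 0.576 for any cell with Slc12a1. Cldn10 was above 0 in 52.2% of control cells with at least 1000 UMIs, and in 39.6% of IRI and 65.9% of control cells with at least 2000. Cldn16 was above 0 in 17.0% of control cells with at least 2000. Ptger3 was above 0 in 23.4% of control cells with at least 1000, and in 34.0% of IRI and 33.3% of control cells with at least 2000. Over the alternatives, 453 log2 ratios of single genes kept their call, 63 fell under 2-fold and 3 changed sign. Those that changed sign were 0.55 for Acy3 and 0.16 for Ttc36 with the immune mean subtracted, and -1.21 for Pgam2 in cells with Slc12a1 and no Slc12a3 or Pvalb. The cause was not tested. At their weakest, with a pseudocount of 0.5, Tubb2b reached 0.49, Lcn2 0.57, Clu 0.74, Tef -0.39 and Dbp -0.78. S100a6 and Pycard were set to 0 by subtracting the immune mean, which was above their TAL mean in both libraries. For these 2 genes that setting therefore cannot show whether the libraries differed. Egf stayed between -1.83 and -1.39 and Spp1 between 1.78 and 2.73 over all alternatives run. Scalings moved the median of all genes by less than 0.1. With 1 library per group, spread between animals is unknown, and genes with few counts in 112 IRI cells have wide counting error.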
